A study of Homo sapiens with 8 samples.

Results

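The genes that build ribosomes in the nucleolus were followed in HCT116, a human colorectal cancer cell line, after knockdown of the transcription factor TFAP2C and in cells with an inducible shRNA against SAE2, the SUMO-activating enzyme subunit also called UBA2. The set holds 47 genes of RNA polymerase I, the small nucleolar ribonucleoproteins (snoRNPs) and pre-rRNA processing. They were chosen by name from the pathway, with earlier results of these data already known. All 47 were found by symbol in both tables of read counts, of 42125 genes listed for the TFAP2C experiment and 23393 for the SAE2 experiment. The 8 libraries form 4 groups of 2 replicates. Cells were transfected for 48 hrs with siRNA, either control or directed at TFAP2C, or were given DMSO (control) or 1 ug/mL of doxycycline (Dox) for 5 days to induce the shRNA (SAE2 kd). According to the sample labels, all 8 libraries, those of the siRNA experiment included, came from HCT116 stably carrying Tet-On shSAE2. Whether this line is a single clone, and whether replicates were separate cultures, is not given in the sources used here. P-values therefore measure only the spread between these libraries, which may be technical. SAE2 kd cells also differ from their controls by Dox itself, so the effects of the shRNA and of Dox cannot be told apart.

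Ribosome production begins in the nucleolus, where RNA polymerase I transcribes a long precursor rRNA. The small subunit processome, built around the U3 snoRNP, folds and cuts the part that becomes 18S rRNA, while box C/D and box H/ACA snoRNPs guide methylation and pseudouridylation of the precursor. Separate sets of factors then mature and export the 40S and 60S subunits. The program is known as a core target of MYC, which binds the E-box CACGTG as a dimer with MAX, and rapidly growing colorectal cancer cells make heavy use of it.

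The E-box was searched in the promoter windows of RefSeq (GRCh38.p14), which run from 250 bases before to 50 bases after each gene's start, since MYC binds it. The genes were selected by name as a program driven by MYC, so a share of E-boxes in them is not independent of that choice. The motif is its own reverse complement, so a match counts on both strands. Of the 47 genes, 42 were searched, and NOP58, NOLC1, RRP12, BOP1 and RRP1B were not analysed for motifs here. CACGTG was in 17 of the 42 (40.5%), against 8.77% of 27305 genes in the promoter table and 12.7% of 9688 genes that were tested in both experiments. In 16 of the 17 genes a match began within 40 bases of the start, and 3 genes held more than 1 match. The windows below are those near the start in genes whose unadjusted p was under 0.05 in either experiment. Each shows 30 bases, 5′ to 3′ on the gene's strand, with the E-box in capitals and the position of its first base counted from the start, which is 1. A match describes the letters only and was not tested as a binding site.
RRP9 (chr3:51941892-51941921, minus strand, position -5): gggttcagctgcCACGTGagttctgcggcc
FBL (chr19:39846356-39846385, minus strand, position 7): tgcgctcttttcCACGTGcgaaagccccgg
NOP14 (chr4:2963374-2963403, minus strand, position 16): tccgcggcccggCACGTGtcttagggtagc
IMP4 (chr2:130342900-130342929, plus strand, position 16): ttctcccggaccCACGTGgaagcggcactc
UTP18 (chr17:51260538-51260567, plus strand, position 5): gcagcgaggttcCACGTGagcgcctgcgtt
PES1 (chr22:30591880-30591909, minus strand, position 14): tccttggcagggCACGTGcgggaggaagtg
WDR43 (chr2:28894658-28894687, plus strand, position 4): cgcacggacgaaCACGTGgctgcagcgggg
MYBBP1A (chr17:4555340-4555369, minus strand, position 28): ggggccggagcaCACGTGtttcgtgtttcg
DDX21 (chr10:68956604-68956633, plus strand, position -31): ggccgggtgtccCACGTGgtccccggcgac

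**Figure D1:**
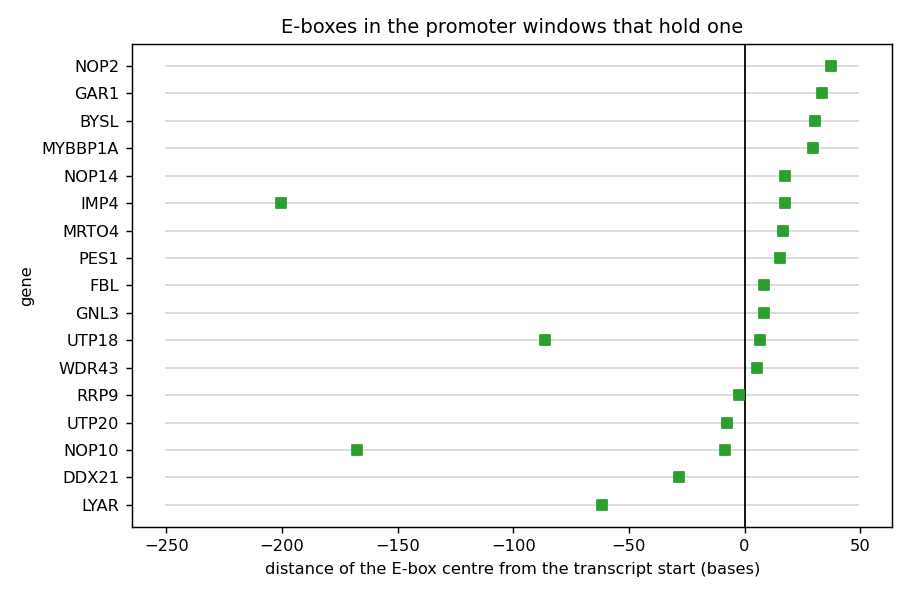
Position of each E-box in the promoter windows of the 17 genes that hold one. The x axis gives the distance of the motif's centre from the transcript start in bases, grey lines span the window, and the vertical line is the start. For 16 of the 17 genes a square lies close to the start, and LYAR is the exception.

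AP-2 factors, the family of TFAP2C, bind palindromes of GCC and GGC. GCCNNNGGC was in 7 of the 42 windows (16.7%), against 39.7% of the genes tested in both experiments, and GCCNNNNGGC was in 13 (31.0%), against 37.1%. Each reads the same on both strands, and matches of the 2 forms can overlap. The promoters of RRP9 and DKC1 are shown from 250 bases upstream to the first transcribed base because these genes rose in the SAE2 experiment, as described below. Capitals mark the E-box and the AP-2-like palindromes. RRP9 holds 2 palindromes and an E-box at its start, while the shown stretch of DKC1 holds a palindrome and no E-box.
RRP9 (chr3:51941904-51942154, minus strand): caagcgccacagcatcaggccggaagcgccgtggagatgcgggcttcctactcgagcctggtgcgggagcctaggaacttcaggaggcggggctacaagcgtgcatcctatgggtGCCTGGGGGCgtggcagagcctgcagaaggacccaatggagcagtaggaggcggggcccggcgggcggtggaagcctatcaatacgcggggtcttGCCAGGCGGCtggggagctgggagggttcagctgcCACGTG
DKC1 (chrX:154762614-154762864, plus strand): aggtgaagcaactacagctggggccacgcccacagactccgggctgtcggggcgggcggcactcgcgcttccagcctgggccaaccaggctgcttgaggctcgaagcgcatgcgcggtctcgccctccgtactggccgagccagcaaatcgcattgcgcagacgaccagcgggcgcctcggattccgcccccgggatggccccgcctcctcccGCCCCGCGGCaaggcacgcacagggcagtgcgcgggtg

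Libraries held 18213739 to 24465109 counts, and CPM below are counts per 1000000 counts with library sizes scaled by edgeR's TMM factors. In the TFAP2C siRNA libraries TFAP2C itself was at 3.46 and 4.30 CPM, against 18.9 and 20.5 CPM in the control siRNA libraries (log2 fold change -2.34, adjusted p = 7.67e-06, quasi-likelihood test of edgeR). UBA2 mRNA was at 162 and 146 CPM in the controls and 147 and 153 CPM in the libraries labelled SAE2 kd (log2 fold change -0.036, adjusted p = 0.766). UBA2 mRNA was thus not shown to be lower, and these libraries are called by their label throughout. MYC had a log2 fold change of 0.22 with TFAP2C siRNA (adjusted p = 0.215) and rose by 0.23 in the libraries labelled SAE2 kd (adjusted p = 0.000895). Of 8 colon epithelial markers, 7 had at least 10 counts in every library of both experiments. Their summed level was 2956 to 3048 CPM with control siRNA and 3266 to 3469 CPM with TFAP2C siRNA, and 2299 to 2335 CPM against 2556 to 2639 CPM in the SAE2 experiment. Of 8 markers of leukocytes, fibroblasts and endothelium, DCN and CD3E were at 0 in the TFAP2C experiment and DCN and PECAM1 in the other. At least 10 counts in every library were held by 2 of the 8 in the TFAP2C experiment and by 1 in the SAE2 experiment. The highest count of any of the 8 was 1157 and 454. The sums of the 8 were 47.3 to 50.5 CPM with control siRNA and 44.3 to 45.4 CPM with TFAP2C siRNA. In the SAE2 experiment they were 16.5 to 23.3 CPM in the DMSO controls and 15.1 to 17.2 CPM in the libraries labelled SAE2 kd. The part of these markers in the results below was not tested.

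All 47 genes passed the filter on low counts in both experiments. Compared per kilobase of gene model (RPKM), their median level in the control siRNA libraries was 23.0, against 4.89 for all genes tested, and 45 of the 47 lay above that median. In the DMSO controls it was 52.6 against 8.88, with 46 of 47 above. NCL, which encodes nucleolin, the abundant nucleolar RNA-binding protein, was the highest in both tables, with 153 RPKM in the siRNA experiment and 843 RPKM in the other. It alone made up 16.6% to 17.1% of the counts on these genes in the siRNA libraries and 20.0% to 21.3% in the others. NOP10, a core protein of the H/ACA snoRNP, and FBL, the methyltransferase fibrillarin of the C/D snoRNP, came next in the siRNA controls with 143 and 96.3 RPKM. NPM1, the nucleolar chaperone nucleophosmin, and NOLC1, a snoRNP chaperone, came next in the DMSO controls with 337 and 183 RPKM. At the low end stood NOP2, an rRNA methyltransferase (0.672 RPKM), the processome protein UTP15 (4.85 RPKM) and PPAN, a 60S factor (4.94 RPKM), in the siRNA controls. The lowest in the DMSO controls were PPAN with 5.41 RPKM, BOP1 with 9.39 RPKM and the helicase DDX10 with 13.1 RPKM.

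The order of levels had a Spearman rho of 0.756 between the tables over the 47 genes, given as a description because the tables use different gene models. NOP2 was at 62.0 times the CPM in the DMSO controls that it had in the siRNA controls. In the table of the TFAP2C experiment a same-strand gene model, AC006064.6, covers 99.8% of NOP2 and holds 0 counts in every library. BOP1 was at 0.101 times its CPM, while the other 45 genes lay between 0.653 and 2.79 times. NOP2 in the TFAP2C experiment and BOP1 in the SAE2 experiment are therefore uncertain. So is PPAN in both, since a readthrough model, PPAN-P2RY11, covers 100% of it with 0 counts.

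With TFAP2C siRNA, none of the 47 genes passed an adjusted p under 0.05, against a background of 0.740% of 14991 genes tested (0.260% higher and 0.480% lower). That count of 0 comes from edgeR's quasi-likelihood test, and the Wald test of DESeq2 gave 0 as well. The values nevertheless lay mostly on the same side. The log2 fold change was above 0 for 43 of the 47 genes, against 49.1% of all genes, with a median of 0.10 against -0.0038 for all genes and a range of -0.19 to 0.25. At an unadjusted p under 0.05, 11 genes were higher and 0 were lower, where the background was 5.68% higher and 6.92% lower. That count of 11 was unstable. Counted in either direction it was also 11, against 7 with DESeq2, 7 with library size only and 1 with the replicate number as a block. It was 13 with the size factors of DESeq2, 14 with no filter and 16 with all 8 libraries in the same fit. It also changed with each library that was left out. Both TFAP2C siRNA libraries lay above both controls for 30 genes and below them for UTP15, while 16 genes overlapped, against a background of 22.4% of genes in each direction. All genes were read from the same 4 libraries and do not count as independent. In bulk RNA, fewer cells of a type and less RNA per cell cannot be told apart.

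The first TFAP2C siRNA library lay further from the controls than the second. Relative to the mean of the controls, the median over the 47 genes was 0.13 for the first and 0.087 for the second on the log2 scale, while the controls were at 0.0062 and -0.0062. Each of the 4 ratios of a TFAP2C siRNA library to a control had a median above 0, from 0.063 to 0.17, with 36 to 41 of the 47 genes above 0. The second TFAP2C siRNA library had a median of -0.074 against the first. Without that second library, 18 of the 47 genes passed (16 higher, 2 lower), among 2825 genes in all, with the lone TFAP2C siRNA library assumed to vary like the controls. Leaving out any other single library gave 0. As a share of all counts the 47 genes took 0.633% and 0.617% with control siRNA and 0.662% and 0.653% with TFAP2C siRNA.

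**Figure D2:**
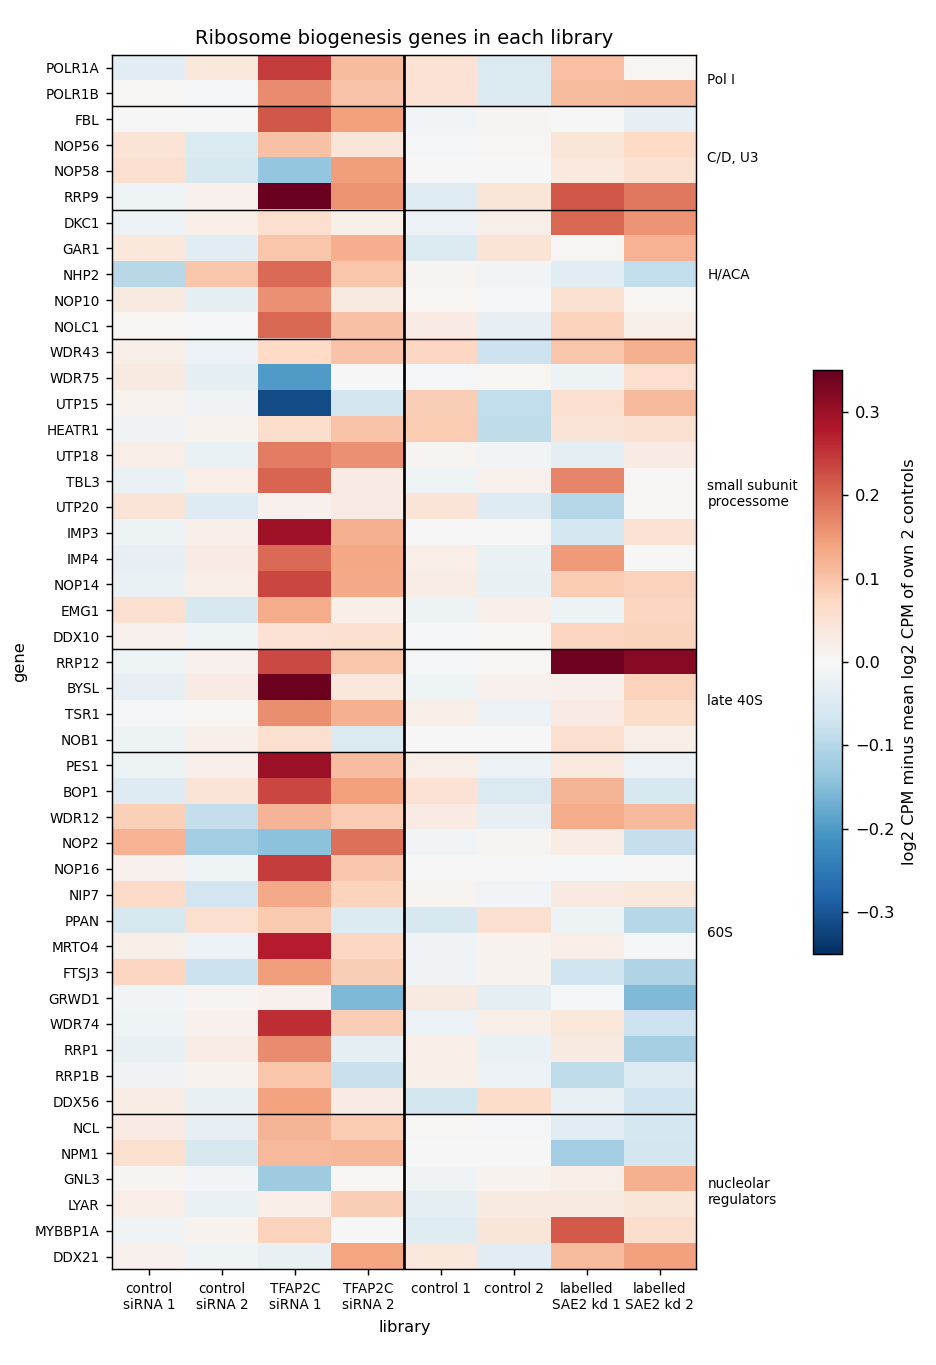
Each row is a gene and each column a library, with colour giving log2 CPM minus the mean log2 CPM of the 2 controls of the same experiment. Red dominates in the TFAP2C siRNA columns, more in the first than in the second, whereas the libraries labelled SAE2 kd are deep red for RRP12 alone and hold both colours among the 60S genes.

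Both RNA polymerase I subunits in the set lay above their controls. POLR1A, the largest subunit, had 155 and 164 CPM with control siRNA and 189 and 172 CPM with TFAP2C siRNA, a log2 fold change of 0.18 (SE 0.073, adjusted p = 0.335). POLR1B, the second largest, had 89.7 and 89.1 CPM against 100.3 and 95.8 CPM, a log2 fold change of 0.13 (SE 0.071, adjusted p = 0.459). The groups did not overlap for either gene, but neither passed the test. The rise was not shared by the rest of the RNA polymerase I machinery, read from 14 genes of the further list described below. With TFAP2C siRNA their median log2 fold change was 0.020, with 8 above 0 and 6 at or below 0. Both TFAP2C siRNA libraries lay above both controls for 4 of the 14 and below them for 2, while 8 overlapped.

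All 4 genes of the C/D and U3 snoRNPs lay above 0, and their median was 0.13. RRP9, the U3-specific protein, stood highest of the 47 genes. It had 59.7 and 60.8 CPM with control siRNA and 76.5 and 67.2 CPM with TFAP2C siRNA, a log2 fold change of 0.25 (SE 0.082, unadjusted p = 0.00912, adjusted p = 0.223). Its TFAP2C siRNA libraries were apart from the controls but also from each other. FBL had 205 and 205 CPM against 238 and 227 CPM, a log2 fold change of 0.18 (SE 0.066, adjusted p = 0.277). The groups were again separate. NOP58, a core protein beside fibrillarin, overlapped, with 93.4 and 86.3 CPM against 81.8 and 99.4 CPM.

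The 5 genes grouped with the H/ACA snoRNP, which carries the pseudouridine synthase dyskerin, all lay above 0, with a median of 0.11. NOLC1 had 305 and 302 CPM with control siRNA and 349 and 326 CPM with TFAP2C siRNA (log2 fold change 0.15, SE 0.067, adjusted p = 0.369). DKC1, which encodes dyskerin, had 127 and 131 CPM against 134.5 and 131 CPM (log2 fold change 0.039, adjusted p = 0.847). NOLC1, the snoRNP chaperone, and DKC1 thus marked the ends of the range among these 5 genes. NOLC1 had separate groups of libraries and DKC1 overlapping ones.

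In the small subunit processome, 10 of 12 genes lay above 0, with a median of 0.083, and 8 had both TFAP2C siRNA libraries above both controls. IMP3, which joins the U3 RNA to the precursor, had 54.8 and 56.2 CPM with control siRNA and 68.1 and 60.5 CPM with TFAP2C siRNA (log2 fold change 0.21, SE 0.082, adjusted p = 0.307). UTP15 had the lowest value of the 47 genes, with 30.9 and 30.4 CPM against 24.6 and 29.3 CPM (log2 fold change -0.19, SE 0.099, adjusted p = 0.463). Most of that difference sat in the first TFAP2C siRNA library. NOP14, IMP4 and UTP18, all subunits of the processome, had log2 fold changes of 0.18, 0.17 and 0.17, each with an unadjusted p under 0.05. NOP14 shares 93.5% of its span with the antisense gene NOP14-AS1. The strand setting of the counting is not given in the sources used here, so that reads of the 2 genes may not be separated. The same limit applies to other genes of the set that overlap a gene on the opposite strand. In this experiment GNL3, for example, shares 35.7% of its span with PBRM1, and FTSJ3 27.0% with PSMC5.

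All 4 genes of late 40S maturation lay above 0, with a median of 0.16. BYSL, the bystin that acts on the pre-40S particle, had 43.5 and 45.2 CPM with control siRNA and 56.2 and 45.5 CPM with TFAP2C siRNA (log2 fold change 0.20, SE 0.10, adjusted p = 0.433). The second TFAP2C siRNA library was level with the controls. RRP12, an export factor of the pre-ribosome, had 89.1 and 91.0 CPM against 106 and 96.4 CPM (log2 fold change 0.17, SE 0.075, adjusted p = 0.381). NOB1, the nuclease that makes the final cut of 18S rRNA, overlapped, with 139 and 142 CPM against 146 and 136 CPM.

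Of the 14 genes of 60S maturation, 13 lay above 0, with a median of 0.10, and 9 had separate groups. PES1 and BOP1, partners with WDR12 in the PeBoW complex that processes the large subunit rRNA, had the highest values. PES1 had 135 and 138 CPM with control siRNA and 168 and 147 CPM with TFAP2C siRNA (log2 fold change 0.21, SE 0.077, adjusted p = 0.287). BOP1 had 212 and 225 CPM against 257 and 241 CPM (log2 fold change 0.19, SE 0.069, adjusted p = 0.279). The groups were separate for both. GRWD1, a histone-binding factor of the pre-60S particle, had the lowest value, with 85.0 and 86.2 CPM against 86.6 and 76.7 CPM (log2 fold change -0.068, adjusted p = 0.761).

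The 6 nucleolar regulators had a median of 0.056, and 0 of them had an unadjusted p under 0.05. NPM1 had 370.2 and 342 CPM with control siRNA and 385 and 385.5 CPM with TFAP2C siRNA (log2 fold change 0.11, adjusted p = 0.518). NCL had 1064 and 1023 CPM against 1134 and 1109 CPM (log2 fold change 0.10, adjusted p = 0.550). Both abundant genes had separate groups. GNL3, the nucleolar GTPase nucleostemin, had 192 and 189.7 CPM against 175 and 192 CPM (log2 fold change -0.058, adjusted p = 0.771), and its groups overlapped.

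In the libraries labelled SAE2 kd, 3 of the 47 genes passed an adjusted p under 0.05, all higher, against a background of 9.98% of 13381 genes tested, 5.52% higher and 4.47% lower. They were RRP12, RRP9 and DKC1, and at 6.38% their share was near that of all genes that were higher. Values lay above 0 for 31 of the 47 genes, against 49.9% of all genes, and ranged from -0.091 to 0.33 on the log2 scale, with the median at 0.035 against -0.00042. At an unadjusted p under 0.05, 8 genes were higher and NPM1 was lower, against 11.7% and 11.0% of all genes. Both libraries labelled SAE2 kd lay above both controls for 18 genes and below them for 6, and 23 genes overlapped, against a background of 25.5% above and 25.8% below. The share of all counts was 1.088% and 1.081% in the controls and 1.085% and 1.082% in the libraries labelled SAE2 kd, which overlap.

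RRP12 (hg19 chromosome 10, 99116458 to 99161127, minus strand) had the largest rise of the 47 genes. It was at 116.5 and 117 CPM in the DMSO controls and 148 and 146 CPM in the libraries labelled SAE2 kd. The gap between the groups was many times that within them, and the rise was 0.33 on the log2 scale (SE 0.054, adjusted p = 4.63e-05, quasi-likelihood test of edgeR), or 25.7%. It passed whichever library was left out, at 0.32 to 0.34 and an adjusted p from 6.39e-06 to 0.000474.

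RRP9 (hg19 chromosome 3, 51967442 to 51975957, minus strand) had 80.0 and 84.8 CPM in the controls and 95.8 and 93.6 CPM in the libraries labelled SAE2 kd. It rose by 0.20 (SE 0.059, adjusted p = 0.0265), or 14.8%. DKC1 (hg19 chromosome X, 153991031 to 154005964, plus strand) had 230.3 and 237 CPM against 268 and 260.3 CPM and rose by 0.18 (SE 0.048, adjusted p = 0.0134), or 13.2%. The groups were separate for both genes, with smaller gaps than for RRP12. Without the first library labelled SAE2 kd the adjusted p was 0.100 for RRP9 and 0.0669 for DKC1, and without the first control it was 0.240 and 0.127. With the Wald test of DESeq2 it was 0.0966 for RRP9, which no longer passed, and 0.0223 for DKC1. RRP9 did not pass with library size only either (adjusted p = 0.0548). RRP9 was the gene just inside the threshold, and DDX21, a helicase that links RNA polymerase I to pre-rRNA processing, was just outside it. DDX21 had 728 and 688 CPM against 763 and 782 CPM (log2 fold change 0.13, SE 0.043, adjusted p = 0.0535). DDX21 passed in edgeR with no filter on low counts (adjusted p = 0.0222). It did not pass with the Wald test of DESeq2 (adjusted p = 0.110) or in edgeR with the replicate block (adjusted p = 0.0594). With a library left out, its log2 fold change was 0.087 to 0.17.

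**Figure D3:**
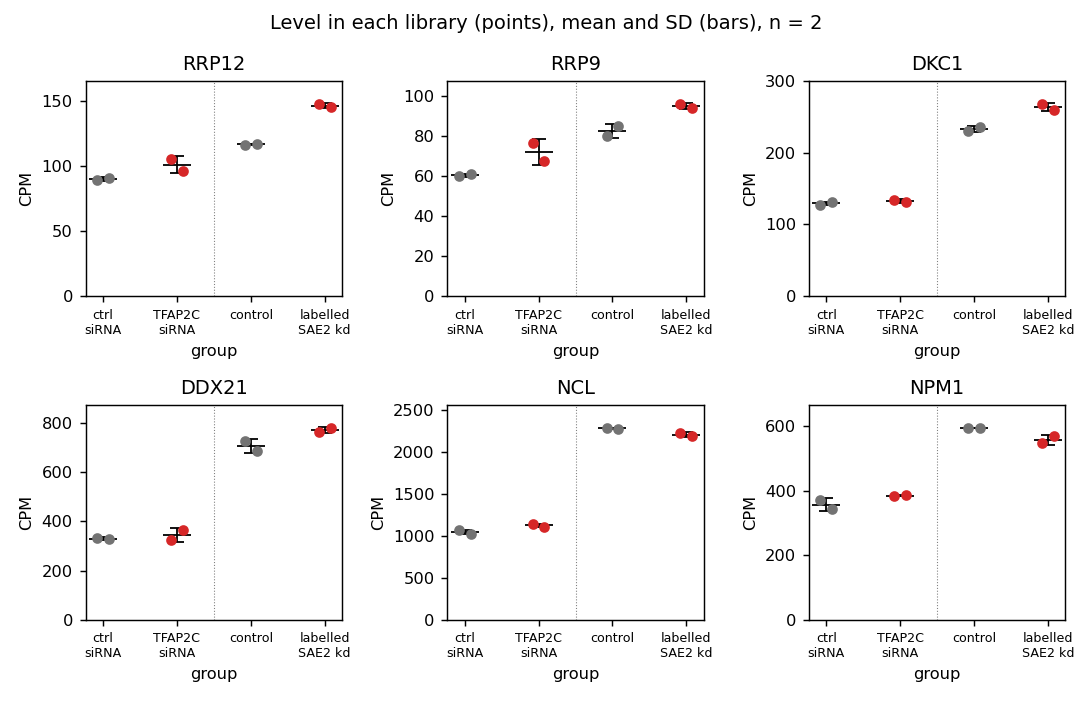
CPM of 6 genes in each library on axes that start at 0, with points for libraries, bars for the mean and SD (n = 2), and a dotted line between the experiments. RRP12, RRP9 and DKC1 lie above their controls in the libraries labelled SAE2 kd, whereas NCL and NPM1 lie slightly below theirs there and slightly above theirs with TFAP2C siRNA.

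NCL and NPM1, the most abundant of the genes, were on the other side of their controls. NPM1 had 596 and 595 CPM in the controls and 548 and 569.7 CPM in the libraries labelled SAE2 kd (log2 fold change -0.091, SE 0.043, unadjusted p = 0.0403, adjusted p = 0.194). NCL had 2285 and 2274 CPM against 2221 and 2184 CPM (log2 fold change -0.050, adjusted p = 0.463). The groups were separate, but neither gene passed the test. The other 4 nucleolar regulators were above 0 with separate groups, led by MYBBP1A, a nucleolar partner of MYB and p53, with 201 and 213 CPM against 240.2 and 216 CPM (log2 fold change 0.14, SE 0.053, adjusted p = 0.101). With a library left out, the log2 fold change of MYBBP1A was 0.062 to 0.21. It did not pass with the Wald test of DESeq2 either (adjusted p = 0.265).

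The 60S genes were the only role group with a median below 0, at -0.022. Of the 14, 5 lay above 0, 2 had both libraries above the controls and 3 had both below. WDR12, a member of PeBoW, had the highest value, with 96.6 and 92.9 CPM in the controls and 104 and 102 CPM in the libraries labelled SAE2 kd (log2 fold change 0.12, adjusted p = 0.200). FTSJ3, an rRNA-processing protein and RNA methyltransferase, had the lowest, with 172.5 and 176 CPM against 166 and 162 CPM (log2 fold change -0.088, adjusted p = 0.326). By contrast, all 4 late 40S genes had separate groups above the controls, with a median of 0.048, though only RRP12 passed the test. The medians were 0.084 for RNA polymerase I, 0.050 for the C/D and U3 snoRNPs, 0.051 for the H/ACA snoRNP and 0.061 for the processome. In the processome WDR43, a subunit that binds the early precursor, had the highest value, with 306 and 277 CPM against 311 and 317 CPM (log2 fold change 0.11, adjusted p = 0.179). UTP20, a large scaffold protein, had the lowest, with 147 and 137.5 CPM against 132 and 142 CPM (log2 fold change -0.047, adjusted p = 0.687). NHP2 was the lowest of the H/ACA genes, with 79.5 and 78.3 CPM against 76.7 and 74.4 CPM (log2 fold change -0.062, adjusted p = 0.601).

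The change of each gene was next compared between the experiments, which have separate controls, in a fit of all 8 libraries. It covered the 13179 genes listed for both experiments that passed the filter on low counts over the 8 libraries together. For 0 of the 47 genes did the changes differ at an adjusted p under 0.05 (edgeR, background 2.37%, of which 0.903% positive and 1.47% negative), and DESeq2 gave 0. At an unadjusted p under 0.05 there were 3, 2 positive and 1 negative, against a background of 6.54% and 7.60%. The difference of the log2 fold changes, TFAP2C siRNA minus labelled SAE2 kd, was 0.19 for NPM1 (SE 0.076, adjusted p = 0.252), 0.18 for FBL (SE 0.075, adjusted p = 0.270) and -0.28 for UTP15 (SE 0.12, adjusted p = 0.313). For RRP12 it was -0.18, with a 95% interval of -0.36 to 0.0081 (adjusted p = 0.376). RRP12 was therefore not shown to differ between the experiments, although it passed the test in a single experiment, and the same held for DKC1 (-0.15, adjusted p = 0.397) and RRP9 (0.042, adjusted p = 0.905). Of the 47 genes, 28 lay above 0 in both experiments, 15 with TFAP2C siRNA alone, 3 in the SAE2 experiment alone and 1, GRWD1, in neither. Over the genes the changes had a Pearson r of 0.12 and a Spearman rho of 0.051, given as a description. For the 60S genes among the 47 the median difference was 0.11, with 12 of 14 above 0 and 0 passing the test.

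**Figure D4:**
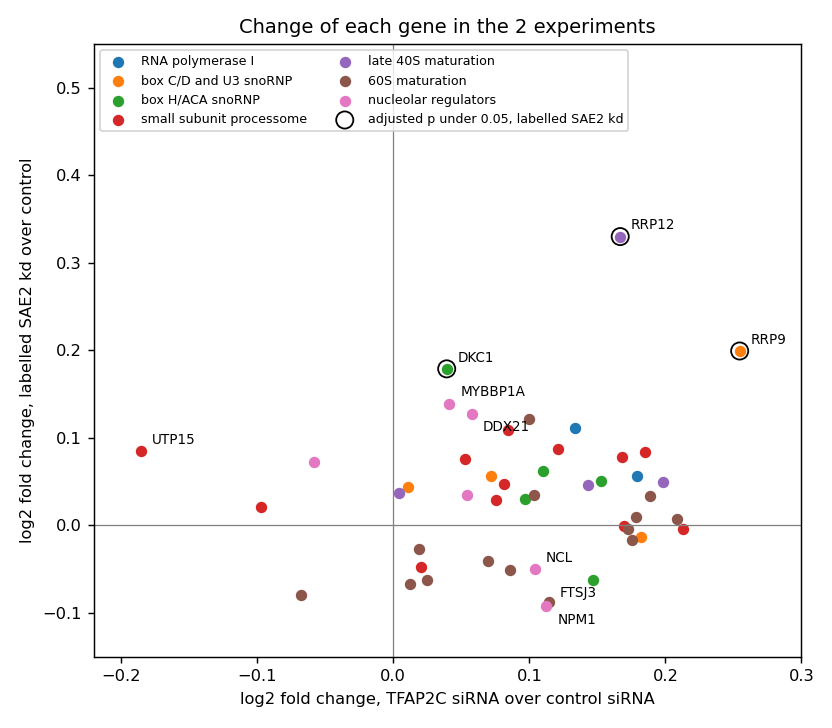
Each point is a gene, with its log2 fold change with TFAP2C siRNA on the x axis and in the libraries labelled SAE2 kd on the y axis, coloured by role. Circles mark the 3 genes with an adjusted p under 0.05 in the SAE2 experiment, and the cloud spreads to the right of 0 without a visible slope.

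The genes were then set apart by the E-box. With TFAP2C siRNA the median log2 fold change was 0.11 for the 17 genes with CACGTG and 0.10 for the 25 without it. At an unadjusted p under 0.05, 6 of the former and 2 of the latter were higher, against 5.68% of all genes. Both TFAP2C siRNA libraries lay above both controls for 64.7% of the former and 64.0% of the latter, against 22.4% of all genes. In the libraries labelled SAE2 kd the medians were 0.049 and 0.029, with 4 and 3 genes higher at that level, against 11.7% of all genes. Both of these libraries lay above both controls for 47.1% and 32.0%, against 25.5% of all genes. These splits were not tested and leave out the 5 genes not searched, among them RRP12.

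The rest of the pathway was read from a list of 113 further ribosome biogenesis genes, all of which were tested. With TFAP2C siRNA 0 of them passed an adjusted p under 0.05 (edgeR), and DESeq2 called 0. At an unadjusted p under 0.05, 13 (11.5%) were higher and 0 lower. Of all genes tested, 0.740% passed, and 5.68% were higher and 6.92% lower at that unadjusted level. Counted in either direction, the 13 became 6 with DESeq2, 7 with the replicate number as a block and 8 with library size only. It was 14 with the size factors of DESeq2, 17 with no filter and 18 with all 8 libraries in the same fit. It also changed with each library that was left out. The median was 0.054, and 85 (75.2%) lay above 0, against 49.1% of all genes. PWP2, counted among the 13, was at 5.13 to 7.05 CPM here and at 137.7 to 145.5 CPM in the SAE2 experiment. DDX47 was at 2.93 to 3.86 CPM here and at 145.2 to 153.4 CPM there. Both are therefore uncertain in the TFAP2C experiment. The lowest adjusted p belonged to RRS1, a factor that brings 5S RNA into the 60S subunit, with 33.4 and 33.8 CPM in the controls and 43.6 and 41.9 CPM with TFAP2C siRNA (log2 fold change 0.35, adjusted p = 0.0893). CD3EAP, the RNA polymerase I subunit now called POLR1G, followed with 44.1 and 45.8 CPM against 60.2 and 54.3 CPM (log2 fold change 0.35, adjusted p = 0.0929). Both had separate groups, and both passed without a filter on low counts and in the fit of all 8 libraries. Neither passed with the Wald test of DESeq2 (adjusted p = 0.198 for RRS1 and 0.136 for CD3EAP). The same held in edgeR with the replicate block (adjusted p = 0.142 and 0.112) and with library size only (0.142 and 0.148). With a library left out, the log2 fold change was 0.32 to 0.38 for RRS1 and 0.27 to 0.43 for CD3EAP.

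In the libraries labelled SAE2 kd, 8 of the 113 genes passed, 7 higher and 1 lower, or 7.08% against the background of 9.98%. That was 6.19% higher and 0.885% lower, against 5.52% and 4.47% of all genes. At an unadjusted p under 0.05 (edgeR), 22 (19.5%) were higher and 1 lower, against 11.7% and 11.0%. In either direction that count was 23, and 12 with DESeq2. The median was 0.041, and 76 (67.3%) lay above 0, against 49.9% of all genes. EXOSC8, a core subunit of the RNA exosome that trims rRNA precursors, rose from 64.9 and 66.9 CPM to 83.8 and 84.9 CPM (log2 fold change 0.36, SE 0.061, adjusted p = 8.53e-05). RSL24D1, a placeholder protein of the pre-60S particle, rose from 148.5 and 146 CPM to 173 and 197 CPM (log2 fold change 0.33, SE 0.057, adjusted p = 8.51e-05). The other rises were smaller. EFL1, SBDS and EIF6, which act together in releasing EIF6 from the new 60S subunit, rose by 0.23, 0.20 and 0.18 (adjusted p = 0.0466, 0.0285 and 0.0182). RPF2, a partner of RRS1, rose by 0.21 (adjusted p = 0.0429), and AATF, a processome factor, by 0.18 (adjusted p = 0.0239). The helicase DHX37 of the processome fell from 127 and 132 CPM to 118.5 and 108.5 CPM (log2 fold change -0.19, SE 0.057, adjusted p = 0.0291). With the Wald test of DESeq2, 3 of these 8 passed, EXOSC8, RSL24D1 and EIF6. EFL1 and RPF2 did not pass when any single library was left out, with adjusted p from 0.0596 to 0.339 and from 0.0833 to 0.247. DHX37 did not pass without the second library labelled SAE2 kd (adjusted p = 0.254) or the second control (adjusted p = 0.221). SBDS passed only without the first library labelled SAE2 kd, with adjusted p from 0.0336 to 0.150 over the 4 fits with a library left out. AATF passed only without the second, with adjusted p from 0.0418 to 0.207, and so did EIF6, with adjusted p from 0.00718 to 0.117. EXOSC8 and RSL24D1 passed whichever library was left out.

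**Figure D5:**
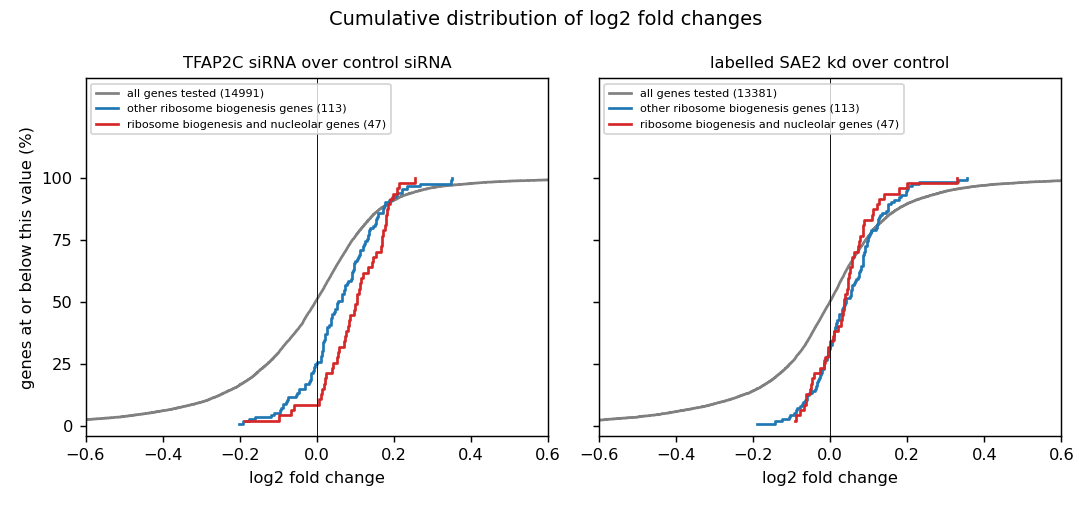
Cumulative share of genes against log2 fold change in each experiment, for all genes tested (grey), the 113 other ribosome biogenesis genes (blue) and the 47 genes described here (red). With TFAP2C siRNA the red curve lies to the right of the grey over most of its range, with medians of 0.10 and -0.0038, while in the libraries labelled SAE2 kd the medians are 0.035 and -0.00042.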

How the data were processed

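mRNA-seq of 8 HCT116 libraries was analysed. The authors deposited raw read counts per gene in a table for each experiment, without normalization. The submitters' processing notes name TopHat2, HTSeq 0.9.1 and hg19. The table of the TFAP2C experiment lists positions of GRCh38 with Ensembl gene types, unlike these notes, and that of the SAE2 experiment lists hg19, so each was fitted alone. All count columns belonged to a sample.

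Low counts were filtered by filterByExpr (edgeR 4.0.16 in R 4.3.3), libraries were scaled by TMM, and groups were compared by the quasi-likelihood test (two-sided) with Benjamini-Hochberg adjustment over all genes tested, at 0.05. edgeR estimated a biological coefficient of variation of 6.28% for the TFAP2C experiment and 3.56% for the SAE2 experiment. RPKM is the CPM divided by the gene length in the table. The difference between experiments was an interaction over genes listed in both tables, filtered on the 8 libraries together. The SE is the size of the log2 fold change over the square root of F. The code was tested on simulated data.

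The 47 genes, the 113 further genes and all lists were chosen with earlier results of these data known. Genes named are those called in any comparison, the extremes of each role group, the highest and lowest 3 by RPKM, those beside the threshold, up to 4 further genes called in each direction, and TFAP2C, UBA2 and MYC. Genes with an unadjusted p under 0.05, RRS1, CD3EAP, SBDS, EIF6, AATF, PWP2 and DDX47 were named after their values had been seen. So was BOP1 in the TFAP2C experiment.

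Alternatives were DESeq2 1.42.0, its size factors, library size only, no filter, a minimum of 10 counts per library, a replicate block, a joint fit of all 8 libraries, and leaving out each library. Same-numbered libraries had deviations correlated at -0.18 in the TFAP2C experiment and 0.016 in the SAE2 experiment.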

Additional observations from a re-analysis of the deposited data

How the results depend on the processing

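The count of 0 among the 47 genes with TFAP2C siRNA held under every alternative but the leaving out of libraries, which gave 0 to 18. The count for the 113 further genes was 2 without a filter and 2 with all 8 libraries in the same fit, and 0 to 28 with a library left out. The median of the 47 genes was 0.075 with library size only, which moved the median of all genes to -0.032, and 0.066 to 0.13 with a library left out. In the SAE2 experiment the count of 3 became 1 with all 8 libraries in the same fit (RRP12), 2 with library size only and with DESeq2 (both without RRP9), 4 with no filter (DDX21 added) and 2 to 4 with a library left out, and the median became 0.038 and 0.0094 with all 8 libraries and with library size only (all genes -0.026), and 0.023 to 0.038 with a library left out. The count of 8 further genes became 3 with DESeq2, 2 with all 8 libraries, 4 with library size only and 2 to 4 with a library left out. The difference between experiments gave 0 to 2 genes with a library left out, the 2 without the second TFAP2C siRNA library being UTP15 and PES1.

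Small values changed sign. With library size only, NOB1 was at -0.025, NOP2 at -0.0095, NOP58 at -0.016 and PPAN at -0.0044 with TFAP2C siRNA. With a library left out, the ranges there were -0.12 to 0.0066 for GNL3, -0.16 to 0.020 for GRWD1, -0.048 to 0.059 for NOB1, -0.15 to 0.18 for NOP2, -0.13 to 0.15 for NOP58 and -0.046 to 0.096 for PPAN. In the SAE2 experiment they were -0.054 to 0.12 for BOP1, -0.10 to 0.0054 for UTP20, -0.027 to 0.0019 for FBL and -0.11 to 0.038 for UBA2. The causes were not tested.

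With the replicate number as a block, 0 of the 47 genes passed with TFAP2C siRNA, 3 in the SAE2 experiment and 0 for the difference. The labels do not say that a number marks a shared culture. With the numbers crossed, an alternative chosen after seeing the data, 0 passed with TFAP2C siRNA. EFL1 and RPF2 no longer passed with the block (adjusted p = 0.0647 and 0.0668). Leaving mitochondrial genes out of the total could not apply to the SAE2 experiment, whose table lists none.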

Other observations

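Of the 47 genes, 8 (NOP56, NOP58, DKC1, WDR43, TSR1, PPAN, NCL and GNL3) carry same-strand snoRNA genes of the tables within their span. The table of the TFAP2C experiment lists 25 such snoRNA genes, with 0 to 18 counts in any library, and that of the SAE2 experiment lists 19, with 0 to 53 counts.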
